A study of Rattus norvegicus with 82 samples.

Results

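The hearts of 17 rats given a lower dose of a tubulin-binding drug were pooled and set against those of 6 rats given saline, all taken 24 h after the dose. The 17 arrays were chosen by their labels alone and comprise vinblastine at 0.5 mg/kg (6 rats), vincristine at 0.1 mg/kg (5 rats) and colchicine at 0.2 mg/kg (6 rats). Together with the saline arrays they make 23 of the 82 arrays of the study. All animals were male Wistar rats of the Crl:Wi(Han) stock, each received 1 intravenous dose, the drugs were dissolved in saline, and each array holds the heart RNA of 1 animal. The study also has 6 h groups and a higher dose of each drug (3, 1 and 2 mg/kg for vinblastine, vincristine and colchicine), which are used here only where they show how the 24 h lower-dose hearts differ. The comparison asks whether any change in transcript level is left in the myocardium 1 day after a lower dose. The doses differ between the drugs, so their values are given side by side and the drugs are not compared with each other.

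Microtubules are hollow polymers of alpha and beta tubulin that grow and shrink by exchange with free tubulin dimers. Vinblastine and vincristine are vinca alkaloids that bind tubulin at a shared site, and colchicine binds it at a different site; all of them disassemble microtubules at sufficient concentration. Cells hold their free tubulin in check by degrading tubulin mRNAs during translation when free dimers accumulate, so tubulin transcripts are a sensitive readout of such drugs. In the heart, microtubules carry cargo in cardiomyocytes and bear part of the load of contraction, while dividing cells depend on them for the mitotic spindle.

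Values are normalized array intensities on a linear scale, tested as log2 values for 11319 genes, each represented by its brightest probe set. A change is the mean log2 value over the 17 lower-dose arrays minus that over the 6 saline arrays, and its error is the standard error of the limma model. A gene passed the test where its p value, adjusted by the Benjamini-Hochberg method over all 11319 genes, was under 0.05. The number of arrays limits the precision. The tissue matched its label: the 5 cardiomyocyte markers on the array (Myh6, Tnnt2, Ryr2, Tnni3 and Myl2) lay at or above the 99.33 percentile of each of the 23 arrays, and their summed intensity ran from 96680 to 116100 in saline and from 100600 to 120700 in the 3 drug groups.

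Of the 17 lower-dose arrays, 3 stood apart from their groups. Each array's distance from its own group was divided by its distance from the closest other group, and arrays with a ratio over 1.3 are called nearer another group. The array labelled vinblastine replicate 5 had a ratio of 1.86 and lay nearest to colchicine 2 mg/kg at 6 h. Vincristine replicate 5 had a ratio of 1.40 and lay nearest to colchicine 0.2 mg/kg at 6 h, and colchicine replicate 6, with a ratio of 1.86, lay nearest to vincristine 1 mg/kg at 6 h. On these arrays 186, 60 and 213 genes, in that order, were at least 2-fold from the saline mean. On the other 14 lower-dose arrays the number was 7 to 25, and on the saline arrays, each set against the mean of the other saline arrays, it was 1 to 25. In the whole series 10 arrays were over the limit, none of them saline. Among them, colchicine 2 mg/kg at 6 h replicate 4 lay nearest to vinblastine 0.5 mg/kg at 24 h, with a ratio of 2.23. The highest ratio among the 24 h saline arrays was 1.17, on replicate 6. That array lay nearest to colchicine 0.2 mg/kg at 24 h, had 25 genes at least 2-fold off, and stays in the saline group in all comparisons as labelled. An exchange of samples and an unusual response of single animals cannot be told apart here, so the values of a drug are those of the arrays that carry its label. The tests use the arrays as labelled. Where the pooled change of a gene given at 24 h moved by over 1.5 times without the 10 arrays over the limit, both values are given. Medians of gene lists are given both ways for some lists only. The 10 were picked by distances in the same values that are tested. Leaving them out lowered the median standard error of the pooled change from 0.0809 to 0.0769. A gene that passed only without them was therefore not tested independently of that choice.

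**Figure D1:**
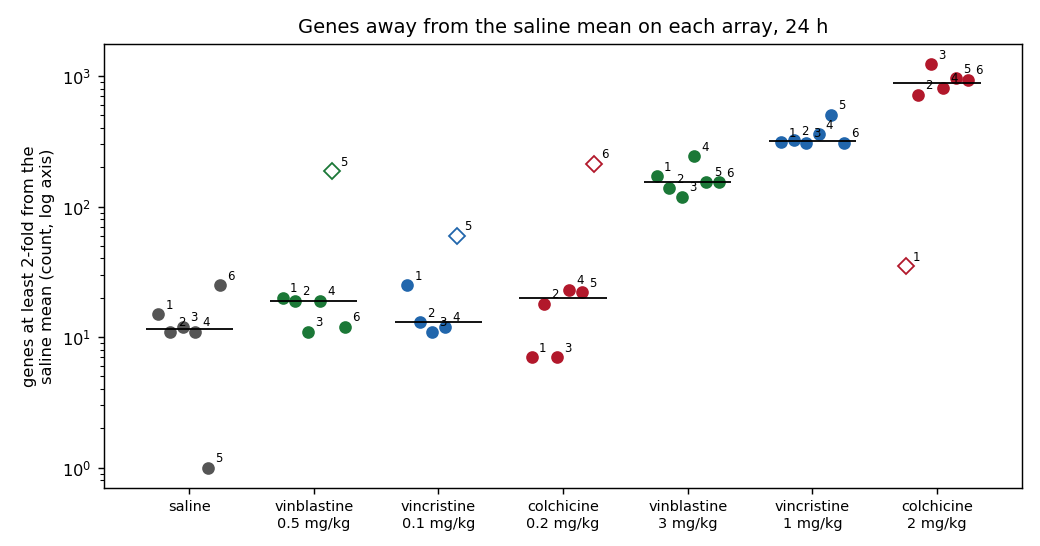
Number of genes (of 11319, log axis) at least 2-fold from the saline mean at 24 h on each array. Points are arrays with their replicate numbers, bars are group medians, and open diamonds are arrays nearer another group; 14 of the 17 lower-dose arrays sit between 7 and 25, next to the saline arrays (1 to 25), while the open diamonds of the lower doses sit at 186, 60 and 213.

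No gene passed the test between the pooled lower doses and saline at 24 h. With limma, 0 of 11319 genes (percentage called 0%) passed the threshold, and the lowest adjusted p was 0.51. At an unadjusted p under 0.05 there were 227 genes, 2.01% of those tested. Of these, 69 were higher (0.61%) and 158 lower (1.4%) in the treated hearts. Chance alone gives 566, so the count lay under chance and does not measure how little changed. The limma model took 1 spread per gene from all 82 arrays, the 10 over the limit included. Whether this raised the p values was not tested. The median change over all genes was -0.018. Without the arrays nearer another group the count stayed at 0, with 260 genes (2.3%) at an unadjusted p under 0.05, and it was 0 in each of 23 fits that left out 1 array of the comparison. Of 12 alternative ways of processing, array weights gave 6 genes, all lower, and the other 11 gave 0.

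The median standard error of a change was 0.0809, and the median 95% interval reached 0.161 to either side on the log2 scale. For 99.6% of the genes the whole interval lay within a 2-fold change in either direction, and for 97.7% within 1.5-fold. The tubulins Tuba4a (-1.59 to 0.03), Tubb4b (-1.31 to 0.08) and Tuba8 (-1.21 to 0.165) were among the exceptions, as their intervals reached past a 2-fold fall. A point estimate of 1.5-fold or more was seen for 17 genes, 10 higher and 7 lower, and of 2-fold or more for 1 gene.

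Each drug alone gave the same count with limma. For vinblastine 0.5 mg/kg, 0 genes (0%) passed and 227 (2.01%) had an unadjusted p under 0.05. For vincristine 0.1 mg/kg the counts were 0 (0%) and 315 (2.78%), and for colchicine 0.2 mg/kg 0 (0%) and 288 (2.54%). Without the arrays nearer another group, vinblastine had 1 gene past the threshold (0.00883%), vincristine 0 (511 at an unadjusted p under 0.05, 4.51%) and colchicine 2 (0.0177%). These genes are given with their groups. Array weights gave 3, 52 and 4 genes for vinblastine, vincristine and colchicine.

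The higher doses differed widely from the lower ones at the same time. Of the 11319 genes, 5156 (45.6%) passed the limma threshold between the 18 higher-dose and the 17 lower-dose arrays, 2570 higher (22.7%) and 2586 lower (22.8%) at the higher doses. The largest rises at the higher over the lower doses were those of Angptl4, an inhibitor of lipoprotein lipase (log2 change 3.01 ± 0.29, adjusted p 6.4e-14), Ankrd23, a muscle ankyrin repeat protein of the sarcomere (2.92 ± 0.27, adjusted p 2.7e-14), and Hamp, the iron hormone hepcidin (2.81 ± 0.33, adjusted p 8.5e-11). The largest fall was that of Tfrc, the transferrin receptor through which cells import iron (-3.09 ± 0.20, adjusted p 1.3e-20), and Nmrk2, a muscle nicotinamide riboside kinase, fell by 2.11 ± 0.22 (adjusted p 1.1e-12).

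At the lower doses these genes lay close to saline. Tfrc ran from 3085 to 3237 on 5 of the 6 saline arrays and was 1548 on saline replicate 6. Over the 17 lower-dose arrays it ran from 1689 to 3692, and the pooled change was -0.12 ± 0.29. The pooled change was 0.15 ± 0.40 for Angptl4, -0.21 ± 0.31 for Nmrk2, 0.17 ± 0.38 for Ankrd23 and 0.30 ± 0.47 for Hamp. When the arrays nearer another group were left out, the change was -0.03 for Tfrc, 0.02 for Angptl4, -0.04 for Nmrk2, -0.04 for Ankrd23 and -0.02 for Hamp. Hamp was 276 on vinblastine replicate 5, 208 on vincristine replicate 5 and 396 on colchicine replicate 6, where the other 14 lower-dose arrays ran from 58.9 to 149, and the saline arrays from 68.4 to 138.

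**Figure D2:**
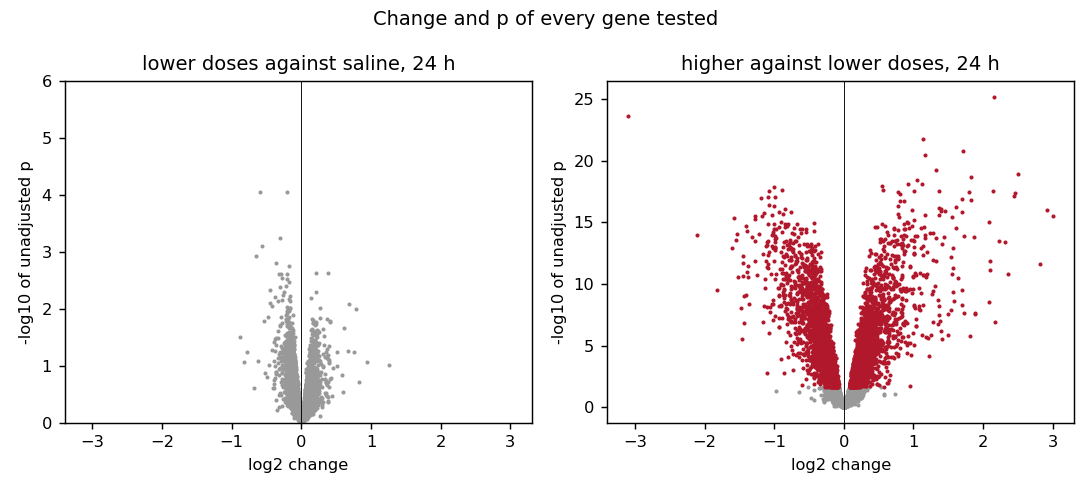
Log2 change (horizontal) and -log10 of the unadjusted p (vertical, on different scales) for each of 11319 genes, for the pooled lower doses against saline and for the higher against the lower doses, both at 24 h. Red points passed an adjusted p of 0.05: 0 on the left, where changes ran from -0.88 to 1.26, and 5156 on the right.

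Tubulin transcripts were not detectably different in the pooled comparison. Of 16 listed alpha and beta tubulin genes, 10 were on the array and 9 passed the filter on dim probe sets. In the pooled comparison 0 of the 9 passed the threshold (0% of all genes did), 8 of the 9 estimates were below 0, and the median change was -0.37, beside -0.018 over all genes. Without the arrays nearer another group the pooled median was -0.13. By drug, the median was -0.143 for vinblastine with all arrays and 0.133 without those, -0.381 and -0.102 for vincristine, and -0.545 and -0.392 for colchicine. The vinblastine median thus changed sign, and that of colchicine did not. At an unadjusted limma p under 0.05, 5 of the 9 were lower with colchicine, as were 175 of all 11319 genes. Vinblastine and vincristine each had 1 lower, beside 153 and 220 of all genes. For vinblastine this was Tubb1, whose pooled change rested on 2 saline arrays, as given below with Npy. Without the arrays nearer another group colchicine again had 5 lower (224 of all genes). Vinblastine then had 1 lower and 3 higher (130 and 88 of all genes), and vincristine 1 lower (374).

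Tuba4a (probe set 1371542_at), an alpha tubulin abundant in muscle, ran from 2958 to 6881 in saline with a median of 5989.8. It was 709, 2697, 4907, 5172, 5233 and 5641 on the vinblastine arrays, 760.1, 5284, 5355, 5417 and 6584 on the vincristine arrays and 671, 2343, 2849.5, 2936, 3508 and 5425 on the colchicine arrays. The 3 lowest of these values were on the arrays nearer another group. Of the other 14, 10 lay inside the saline range, and the lowest saline value was that of replicate 6, with the other 5 between 5182 and 6881. The pooled change was -0.78 ± 0.41 (95% interval -1.59 to 0.03, limma adjusted p 0.9997), and -0.32 ± 0.20 without the arrays nearer another group. Leaving out saline replicate 6 moved it to -0.95.

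The beta tubulin Tubb4b followed the same arrays. In saline it ran from 1876 (replicate 6) to 4112, with a median of 3423. It was 514 to 3954 (median 3234) with vinblastine and 547 to 3149.9 (median 1837) with colchicine, and 716, 3216, 3233, 3297 and 3857 on the vincristine arrays. The groups overlapped, and the pooled change was -0.62 ± 0.35, or -0.23 without the arrays nearer another group. Tuba8, a further muscle alpha tubulin, had a pooled change of -0.52 ± 0.34, and Tubb5, a widely expressed beta tubulin, one of -0.37 ± 0.22. Neither passed the test, and without the arrays nearer another group both were -0.13.

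Tubb2a, a beta tubulin, lay above saline on several vinblastine arrays. Its saline values ran from 641 to 1157. With vinblastine, 4 of 6 arrays lay above that range (1439 to 1678), and replicate 5 was 222. No vincristine or colchicine array lay above it. The pooled change was -0.26 ± 0.29, and it was 0.07 without the arrays nearer another group. Tubb2b, Tubb4a and Tubb6 had pooled changes of 0.03, -0.00 and -0.09, each with a standard error of 0.07 to 0.16, and 0.09, -0.01 and -0.01 with those arrays left out.

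Tubg1, the gamma tubulin from which microtubules are nucleated, ran from 323 (replicate 6) to 514 in saline, from 172 to 497 with vinblastine, from 210.1 to 452 with vincristine and from 165 to 392 with colchicine. Its change was -0.39 ± 0.18 (unadjusted p 0.0389, limma adjusted p 0.9997), and -0.20 without the arrays nearer another group. The wider gamma tubulin ring complex showed 0 of 9 members past the threshold and a median of -0.065. Among 24 genes of tubulin folding and autoregulation, and 31 of microtubule motors and associated proteins, 0 passed, with medians of -0.052 and 0.004.

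**Figure D3:**
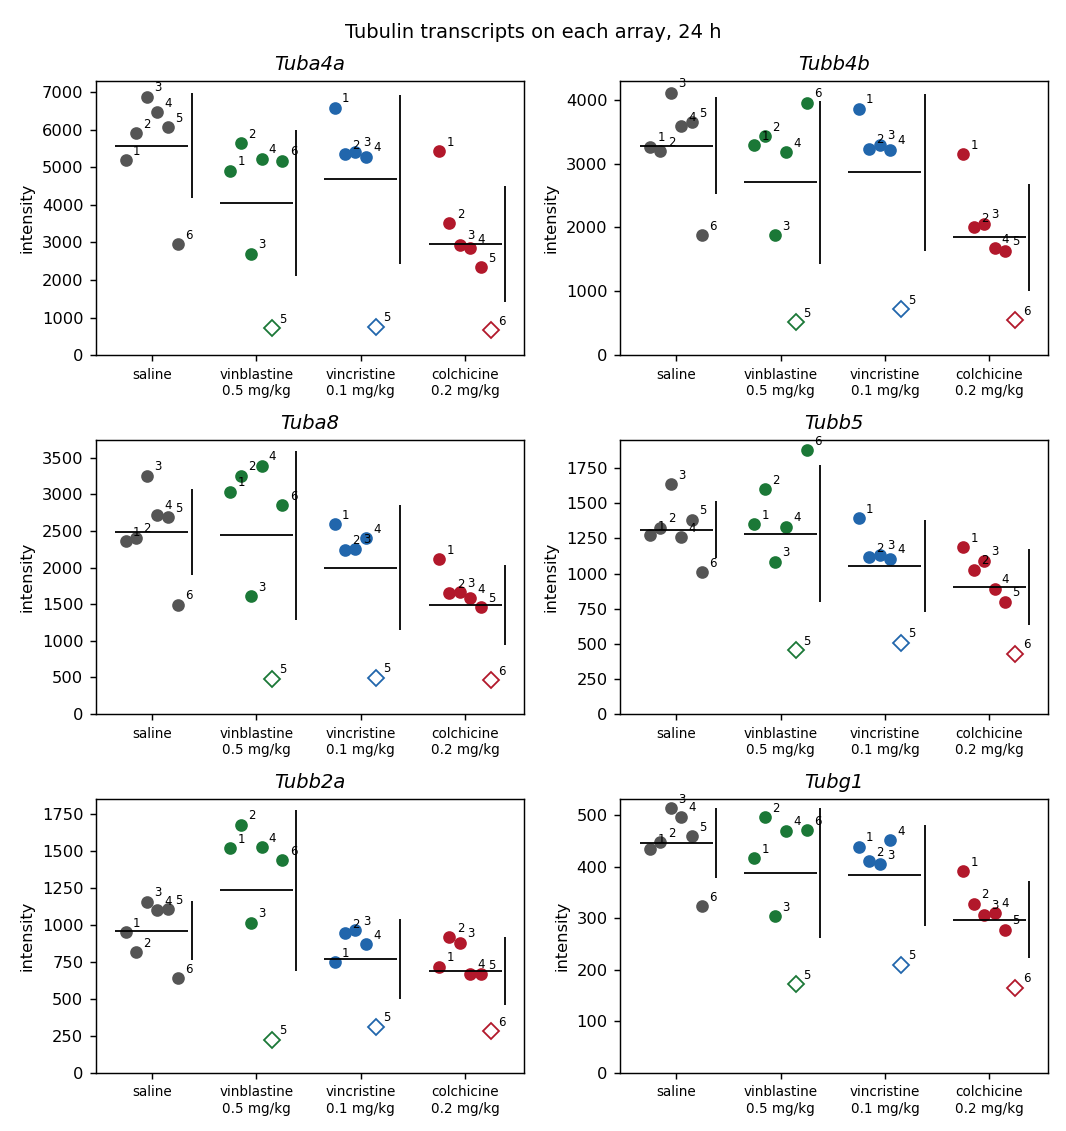
Intensity (linear, from 0) of 6 tubulin genes on each of the 23 arrays. Points carry their replicate numbers, horizontal bars are group means, vertical bars are 1 SD either side, and open diamonds are the arrays nearer another group, which lie lowest in their group in all 6 panels; saline replicate 6 and vinblastine replicate 3 lie low for Tuba4a (2958 and 2697), as do colchicine replicates 2 to 5 (2343 to 3508).

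Between the higher and the lower doses 2 of the 9 tubulins passed as higher and 2 as lower, where 22.7% and 22.8% of all genes did. At 24 h Tuba4a was lower at the higher than at the lower doses (-1.46 ± 0.29, limma adjusted p 1.9e-05), as were Tuba8 (-1.43 ± 0.25, adjusted p 1.2e-06) and Tubg1 (-0.57 ± 0.13, adjusted p 0.00023). Tubb6 was higher there (0.54 ± 0.11, adjusted p 5.3e-05), and so was Tubb2a (0.51 ± 0.21, adjusted p 0.037). At 6 h the same lower doses gave pooled changes of -1.67 ± 0.41 for Tuba4a, -1.33 ± 0.35 for Tubb4b and -1.12 ± 0.34 for Tuba8, none past the threshold with all arrays (1 gene, 0.00883%, passed at 6 h). Tuba4a had a median of 741 with vinblastine and 826 with colchicine at 6 h, but 5587 with vincristine, beside 5187 in 6 h saline.

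The change at 24 h was tested against that at 6 h, which rests on other animals and another saline group. With all arrays limma gave 0 genes (0%), and 372 (3.29%) at an unadjusted p under 0.05. When the arrays nearer another group were left out, 9 genes passed (0.0795%). The 24 h lower-dose arrays left out held the lowest Tuba4a values of their groups (709, 760.1 and 671). At 6 h, colchicine 0.2 mg/kg replicates 1 and 6, also left out, lay nearest to 24 h saline (ratios 1.42 and 1.38). Vinblastine 0.5 mg/kg replicate 6 at 6 h lay nearest to colchicine 2 mg/kg at 6 h (ratio 1.85). The choice of arrays thus bears on this difference, so the 9 are no independent evidence of it. Tuba4a (difference 1.49 ± 0.28, adjusted p 0.00668), Tubb4b (1.21 ± 0.23, adjusted p 0.00764), Tuba8 (1.11 ± 0.23, adjusted p 0.0115) and Tubb5 (0.67 ± 0.15, adjusted p 0.0462) lay higher, relative to their saline group, at 24 h than at 6 h. Rfx2, a transcription factor of ciliated cells (-1.18 ± 0.13, adjusted p 1.6e-09), Dusp14, a dual-specificity phosphatase (-0.73 ± 0.10, adjusted p 1.01e-05), Rfx3, Ankrd50 and Smim3 lay lower at 24 h than at 6 h. These 9 were among 16 genes (0.141%) that passed at 6 h without those arrays, of which 0 passed at 24 h. Across all 11319 genes the correlation of the 6 h with the 24 h changes was 0.131 with all arrays and -0.005 without those 10, a description over genes that share arrays within each time.

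Tppp3, a tubulin polymerization-promoting protein, and Fam216b are among 4 genes listed because colchicine raised them at 6 h in these data, so the list is no independent evidence of direction. In the pooled comparison 0 of the 4 passed and the median was -0.011. Tppp3 ran from 451 to 616 on saline replicates 1 to 5 and was 1038 on replicate 6. It was 378, 451, 1304, 443, 132 and 418 on vinblastine replicates 1 to 6 and 436, 440.1, 444, 419 and 3004 on vincristine replicates 1 to 5. On colchicine replicates 1 to 6 it was 394, 1198, 1142, 1164, 1085 and 154. The high values thus lay on 4 colchicine arrays, 1 vinblastine array, 1 vincristine array and 1 saline array, and the pooled change was 0.00 ± 0.35, or 0.12 without the arrays nearer another group.

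Fam216b was high on most of the same arrays. It was 60 to 83.3 on saline replicates 1 to 5 and 378 on replicate 6, 285, 246, 476 and 320 on colchicine replicates 2 to 5, 552 on vincristine replicate 5 and 160 on vinblastine replicate 3. The remaining lower-dose arrays ran from 58.8 to 113. For colchicine alone the change was 1.12 ± 0.34 with all arrays (unadjusted p 0.00168, limma adjusted p 0.9999). With those arrays left out it was 1.40 ± 0.26 and passed (adjusted p 0.00851), as did Spmip6, a sperm microtubule inner protein, at 0.58 ± 0.11 (adjusted p 0.0119). Spmip6 was named after its values were seen, and its lowest value (62.2) lay on colchicine replicate 6, 1 of the arrays left out. Rfx2 was 555 on vincristine replicate 5 and 37.0 to 77.4 on the other 22 arrays. Its pooled change was -0.03 ± 0.28, or -0.16 without the arrays nearer another group.

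**Figure D4:**
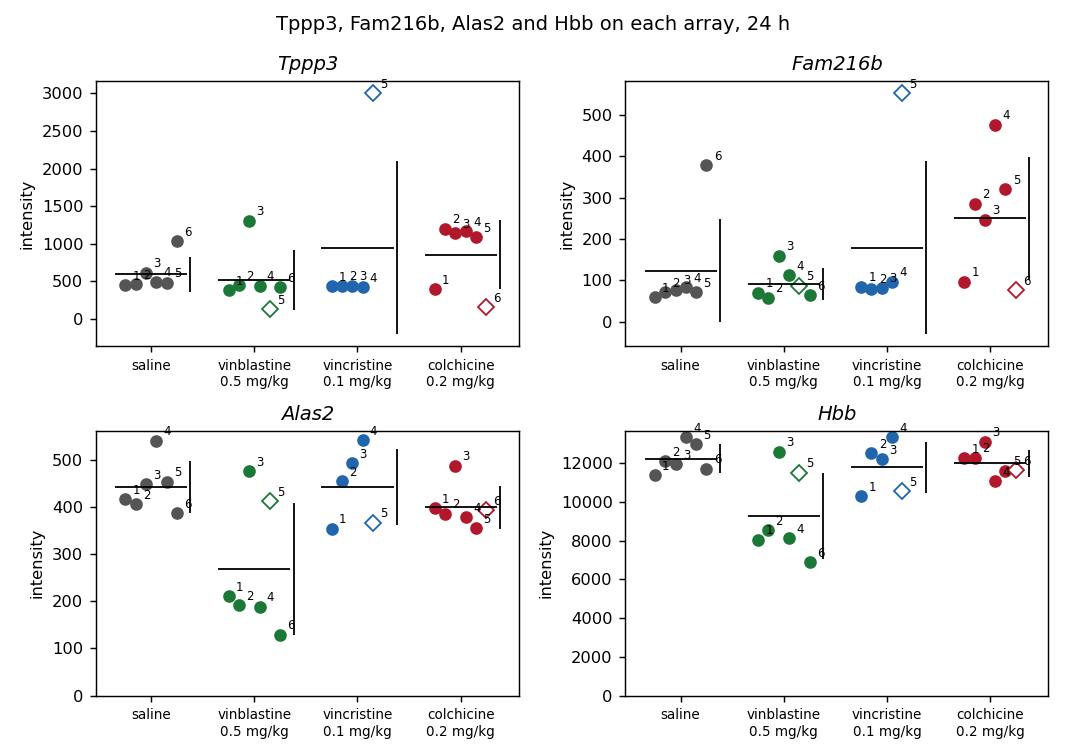
Intensity (linear) of Tppp3, Fam216b, Alas2 and Hbb on each of the 23 arrays, with replicate numbers; horizontal bars are group means, vertical bars are 1 SD either side, and open diamonds are arrays nearer another group. Tppp3 lies between 1038 and 3004 on colchicine replicates 2 to 5, vinblastine replicate 3, vincristine replicate 5 and saline replicate 6, and Alas2 is 211 or less on vinblastine replicates 1, 2, 4 and 6.

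Among red cell genes the lower values lay with vinblastine. Of 10 listed genes 4 were tested, 0 passed in the pooled comparison, and their median change was -0.253, with -0.451 for vinblastine, -0.036 for vincristine and -0.087 for colchicine. Alas2, the erythroid enzyme that starts haem synthesis, ran from 387 to 540.3 in saline. It was 211, 192, 476, 188, 412 and 129 on vinblastine replicates 1 to 6, 354 to 540.4 with vincristine and 354 to 487 with colchicine. The vinblastine change was -0.87 ± 0.21 (unadjusted p 0.000123, limma adjusted p 0.696). It passed without the arrays nearer another group, at -1.03 ± 0.20 (adjusted p 0.0289), and without vinblastine replicate 3 alone, at -1.07 ± 0.21 (adjusted p 0.0422).

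Hbb, a beta globin, showed the same split of the vinblastine arrays. It ran from 11386 to 13341 in saline, was 8057, 8547, 8129 and 6904 on vinblastine replicates 1, 2, 4 and 6, and was 12589.6 and 11500.3 on replicates 3 and 5. With vincristine it ran from 10311 to 13355 and with colchicine from 11083 to 13105. The vinblastine change was -0.43 ± 0.12 (unadjusted p 0.000438, limma adjusted p 0.991). The summed intensity of the 5 red cell genes on the array was 12190 to 14240 in saline, 7309 to 13380 with vinblastine, 11010 to 14210 with vincristine and 11830 to 13890 with colchicine. In whole hearts fewer cells of a type and less RNA per cell cannot be told apart.

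Genes with the lowest p values among those lower in the treated hearts are given as values, since none passed. Faf2 (1383070_at), a membrane protein of the endoplasmic reticulum that helps extract proteins for degradation, ran from 160.4 to 176 in saline and from 134 to 161 over the 17 treated arrays. Of these, 16 lay under the lowest saline array, and the change was -0.21 ± 0.05 (unadjusted p 8.7e-05, limma adjusted p 0.51). Dyrk3, a kinase that dissolves stress granules, ran from 26.1 to 47.5 in saline and from 17.9 to 36.2 in treated hearts. Its change was -0.57 ± 0.16, and all its values lay under the array medians (57.6 to 63.3). Cadps2, a vesicle priming protein (-0.30 ± 0.08), Alkbh2, a DNA repair enzyme (-0.37 ± 0.11), Bbc3, the pro-apoptotic protein PUMA (-0.18 ± 0.06), Spon2, a matrix protein (-0.32 ± 0.10), Podn, a small leucine-rich proteoglycan (-0.29 ± 0.09), and Mettl26 (-0.21 ± 0.07) were also lower, each with 7 to 13 of the 17 arrays under the saline range.

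Tubb1 and Npy, also in that set, rested on 2 saline arrays. Tubb1, the beta tubulin of platelets and megakaryocytes, was 38.4, 45.3, 39.8, 179, 92.1 and 41.2 on saline replicates 1 to 6. It ran from 32.5 to 49.2 over all treated arrays. Apart from saline replicates 4 and 5, its values lay under the array medians (57.6 to 63.3). Npy, neuropeptide Y, was 202, 229, 189, 1256, 778 and 199 in saline and 159 to 320.1 in treated hearts. The changes were -0.60 ± 0.14 and -0.66 ± 0.19, and without saline replicate 4 they were -0.28 and -0.29. Pf4, a platelet chemokine looked up after these values were seen, was 824 and 508 on the same saline replicates 4 and 5, 188 to 222 on the other 4 and 156 to 275 in treated hearts, with a change of -0.48 ± 0.19, or -0.19 without saline replicate 4. Array weights, which gave saline replicate 4 a weight of 1.92 and replicate 5 a weight of 3.38, put Tubb1, Npy and Pf4 among the 6 genes past the threshold.

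The genes with the lowest p values among those higher were Milr1, an inhibitory receptor of mast cells (0.21 ± 0.07), and Ppl, the desmosomal plakin periplakin (0.38 ± 0.12). Ppl ran from 36.4 to 48.8 in saline and from 36.4 to 71.7 in treated hearts, where 13 of 17 arrays were above the saline range. ST7 (0.21 ± 0.07), Rhbdf1, an inactive rhomboid protein (0.14 ± 0.05), Tent5b, a poly(A) polymerase (0.69 ± 0.25), Cnksr1, a scaffold of Ras signalling (0.27 ± 0.10), Slc39a2, a zinc transporter (0.27 ± 0.11), and Cxhxorf38 (0.15 ± 0.06) followed. Xdh, which forms uric acid, ran from 662 to 898 in saline and from 769 to 1508 in treated hearts, with a change of 0.37 ± 0.15. Fkbp5, a chaperone induced by glucocorticoids, ran from 103 to 247 in saline and from 126 to 777 in treated hearts. Its change was 0.78 ± 0.29, and 0.56 without the arrays nearer another group, of which vinblastine replicate 5 (618) and colchicine replicate 6 (777) were the 2 highest values.

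For single drugs, the genes with the lowest p values were in part the same as in the pooled comparison. With vinblastine they were Tubb1 (-0.71 ± 0.17), Alas2 and Trub1, a pseudouridine synthase of tRNA (-0.36 ± 0.09), among the lower genes, and Rhbdf1 (0.22 ± 0.06), Nkd2, an antagonist of Wnt signalling (0.28 ± 0.09), and Zfp428 (0.19 ± 0.07) among the higher. With vincristine they were Faf2 (-0.23 ± 0.07), Nhlrc3 (-0.36 ± 0.10) and Eif2d, a translation initiation factor (-0.30 ± 0.09), and, higher, Milr1 (0.34 ± 0.08), Mfsd11 (0.27 ± 0.09) and Grin2a, a subunit of the NMDA receptor (0.27 ± 0.09). With colchicine they were Clip2, a microtubule plus-end protein (-0.48 ± 0.12), Cadps2 (-0.40 ± 0.10) and Vegfc, the lymphatic growth factor (-0.39 ± 0.10), and, higher, Pdlim3, a Z-disc protein (0.43 ± 0.13), Slc39a2 (0.44 ± 0.13) and 6430548M08Rikl (0.35 ± 0.11). The lowest adjusted p of any gene was 0.696 with vinblastine, 0.9997 with vincristine and 0.9999 with colchicine.

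The estimates of largest size came from genes that varied widely between animals, named after their values were seen. Sgcb, a sarcoglycan of the muscle membrane, was 97.1 to 144 in saline. Over the treated arrays it was 887.6 to 2084 on 7 and 82.2 to 121 on the other 10, with such high values in each drug group, so that the change of 1.26 had a standard error of 0.75. Card9, an adaptor of innate immune signalling (0.95 ± 0.55), Drg1, a GTPase (-0.88 ± 0.40), Ccn1, a matrix-associated early gene (0.83 ± 0.63), and RT1-Bb, a class II histocompatibility gene (-0.83 ± 0.47), followed, and none passed the test. Ccn1 was 1389 on vinblastine replicate 5 and 2456 on colchicine replicate 6, and without the arrays nearer another group its change was 0.19. Over 12 alternative ways of processing, the change ran from 0.619 to 1.356 for Sgcb and from -0.855 to -0.177 for RT1-Bb. It ran from 0.886 to 1.041 for Card9 and from -0.979 to -0.636 for Drg1.

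Across 42 gene lists, chosen with earlier results of these data known, 0 members passed in any list (0% over all genes). The list medians ran from -0.372 for the tubulins to 0.126 for cardiac stress genes, and 34 lists lay within 0.1 of 0. Mitosis and G2/M genes had a median of -0.145 over 18 tested genes, with 14 estimates below 0 and 3 at an unadjusted p under 0.05, all lower, as were 1.4% of all genes. With the arrays nearer another group left out, the median was -0.158 and 6 were lower at that level (1.51% of all genes). The 3 were Cdca3, a regulator of mitotic entry (-0.28 ± 0.09), Cdk1, the kinase that starts mitosis (-0.42 ± 0.16), and Kif11, the kinesin that separates spindle poles (-0.17 ± 0.08). Cdk1 ran from 61.8 to 122 in saline and from 43.3 to 134 in treated hearts, and the groups overlapped. DNA replication and G1/S genes had a median of -0.06 over 19 genes.

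Macrophage genes had a median of 0.087 over 18 tested genes, with 16 estimates above 0 and 2 higher at an unadjusted p under 0.05, as were 0.61% of all genes. The median was 0.164 without the arrays nearer another group, and 5 were higher at that level (0.786% of all genes). Lgals3, galectin-3 of activated macrophages, ran from 323 to 406 in saline and from 352 to 849 in treated hearts (0.33 ± 0.15, or 0.22 without those arrays), and Lyz2, a lysozyme of myeloid cells, had a change of 0.21 ± 0.11. The summed intensity of the 21 listed genes on the array was 4162 to 4916 in saline, 4678 to 5523 with vinblastine, 4251 to 5447 with vincristine and 3601 to 5558 with colchicine. At the higher doses 11 of the 18 genes were higher and 1 lower than at the lower doses by the limma test, where 22.7% and 22.8% of all genes were. Cd14, the endotoxin co-receptor, was 0.38 ± 0.21 at the lower doses, or 0.20 without those arrays, and the higher doses lay 1.29 ± 0.15 above these (adjusted p 4.4e-11).

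A pair of neutrophil genes was high on 2 arrays. S100a9, a calcium-binding protein abundant in neutrophils, was 568 on vinblastine replicate 5 and 502 on colchicine replicate 6, and 35.6 to 108 on the other 21 arrays. S100a8, its partner, was 135 and 127 on those 2 arrays and 23.8 to 34.1 on the others. Their pooled changes were 0.39 ± 0.49 and 0.34 ± 0.33, or -0.07 and 0.06 without the arrays nearer another group. Camp, the cathelicidin of neutrophil granules, was above the saline range on no treated array. It ran from 31.2 to 45.6 in saline and from 28.1 to 44.0 in treated hearts, with a change of -0.10. All Camp values lay under the array medians (57.6 to 63.3), as did S100a8 outside those 2 arrays, so the absence of a rise in Camp says little. Of 14 listed neutrophil genes 9 were on the array and 5 were tested. The summed intensity of the 9 was 245 to 296 in saline and reached 962 with vinblastine and 868 with colchicine, but 328 with vincristine. The part of these cells in the pooled values was not tested. The list median was 0.051, and -0.071 without the arrays nearer another group.

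Stress and hormone genes of the heart lay slightly above 0 in the pooled comparison. For the 17 cardiac stress genes the median was 0.126, and 0.049 without the arrays nearer another group, with 0.191 for vinblastine, -0.071 for vincristine and 0.211 for colchicine. Csrp3, the muscle LIM protein of the Z-disc, ran from 8254 to 11199 in saline and from 9037 to 15902 in treated hearts (0.24 ± 0.12). Tnfrsf12a, the TWEAK receptor, was 95.9 to 148 in saline, 1286 on vinblastine replicate 5 and 1352 on colchicine replicate 6, and 103 to 262 on the other 15 treated arrays, with a change of 0.59 ± 0.40, or 0.18 without the arrays nearer another group. The gene of the atrial natriuretic peptide, Nppa, ran from 991 to 2807 in saline and was 859 to 6049 in treated hearts (0.35 ± 0.34), with the highest value on vincristine replicate 5. Its change was 0.23 without the arrays nearer another group, and 0.198 without saline replicate 6. Glucocorticoid targets had a median of 0.118, and 0.032 without those arrays; Klf9, a hormone-induced transcription factor, was 0.26 ± 0.12 and Tsc22d3, the leucine zipper GILZ, was 0.22 ± 0.12 (0.13 without those arrays). Of the same 17 cardiac stress genes 13 were higher at the higher than at the lower doses, and of 13 glucocorticoid targets 9 were higher and 1 lower, where 22.7% of all genes were higher and 22.8% lower.

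Other cell types of the heart had list medians from -0.086 to 0.051, beside -0.018 over all genes. The medians were -0.036 for 25 endothelial genes, 0.026 for 14 smooth muscle and pericyte genes, -0.086 for 28 fibroblast and matrix genes and -0.079 for 9 atrial muscle genes. In these lists 18, 5, 23 and 6 estimates, in that order, were below 0. Without the arrays nearer another group the fibroblast and matrix median was -0.093, with 24 estimates below 0. For 6 skeletal muscle, 8 adipocyte, 9 lymphocyte and 7 mesothelial and nerve genes they were -0.012, 0.051, -0.002 and 0.031. The sarcomere list (17 genes, median 0.007) and oxidative phosphorylation (31 genes, median 0.002) lay close to 0. Probe sets without a single gene symbol gave the same count: 0 of 4961 passed, and 112 had an unadjusted p under 0.05.

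**Figure D5:**
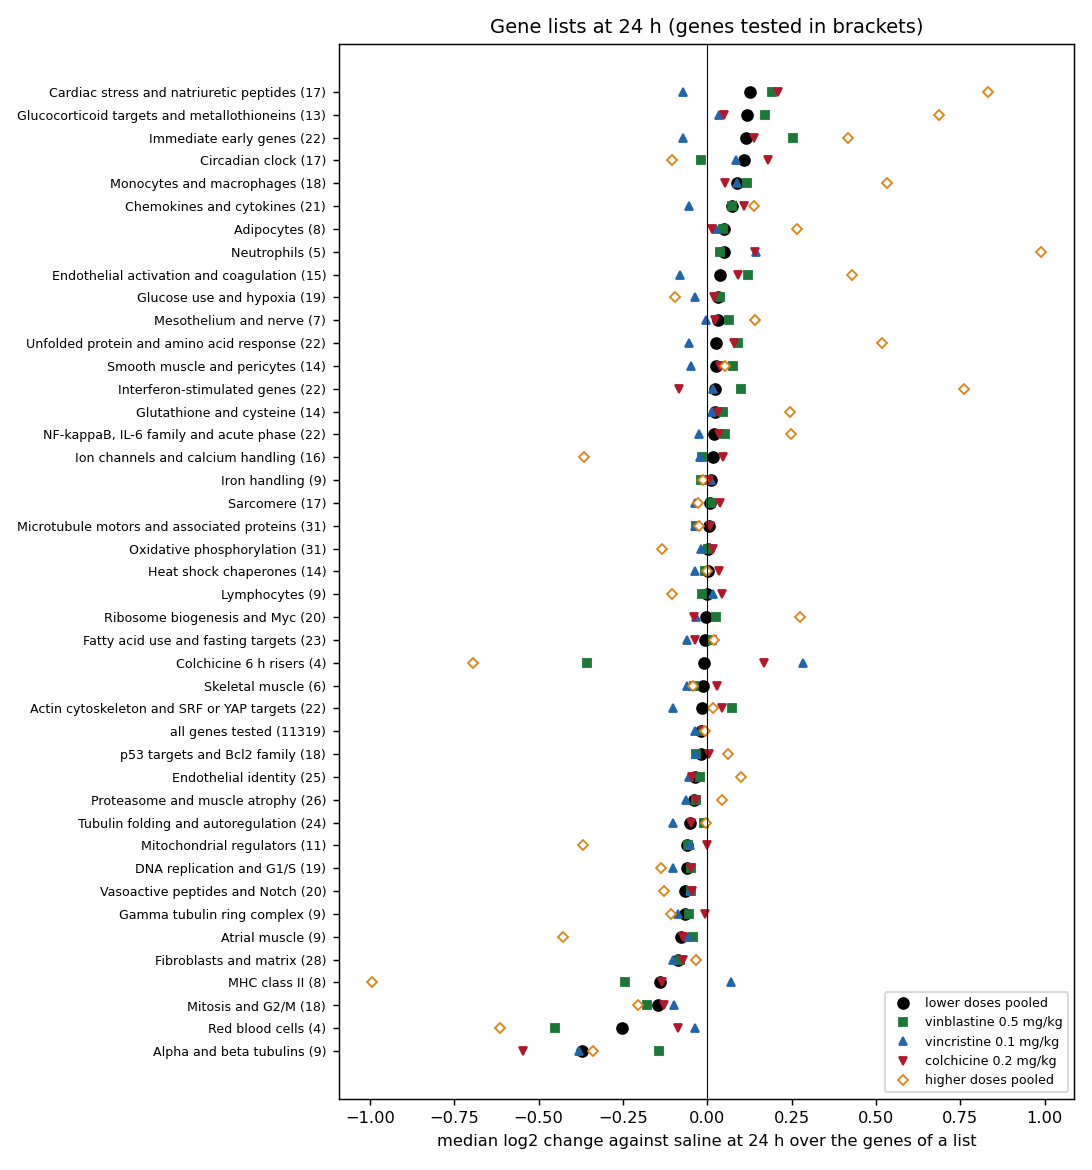
Median log2 change against saline at 24 h over the tested genes of each of 42 lists and over all genes, for the pooled lower doses (black), each drug at its lower dose and the pooled higher doses (open diamonds). The pooled lower-dose medians lie between -0.372 and 0.126; comparisons share the 6 saline arrays, so they are not independent of each other.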

How the data were processed

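Heart RNA of 82 rats was hybridised to Affymetrix arrays. Total RNA came from Qiagen's kit and was labelled as cRNA with biotin, per the labels' protocols. The deposited table holds intensity values for 31099 probe sets on a linear scale, summarised and normalized by the authors with a method not given in the sources used here; they run from 9.76 to 39497, with array medians of 57.6 to 63.3. Array number limits the precision. The deviations of same-numbered arrays had a median correlation of 0.02 over 33 pairs (-0.293 to 0.461, 10 pairs over 0.1). With a median near 0, replicate numbers were not taken as pairs, and a replicate block was tried as an alternative. The distance between an array and a group was the root mean square log2 difference from the group's median profile, the array itself left out.

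Probe sets with 1 symbol in the array annotation (20832) covered 14217 genes; the brightest stood for its gene. The 11319 genes above the 40th percentile of the array on at least 5 arrays were tested on log2 of the deposited intensity. Limma 3.58.1 in R 4.3.3 fitted 14 group means to all 82 arrays (residual df 68, prior df 4.93), and the pooled contrast weighted groups by their arrays. The code was tested on simulated data.

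Members and lists were chosen with earlier results of these data known. Genes named are the 10 lowest p values in each direction, tubulins and Tubg1, up to 3 members a list, and, of other comparisons, those with the lowest p or the largest change; some that the rule takes are left out for length. Sgcb, Drg1, Card9, Spmip6, Dusp14, Rfx3, Ankrd50 and Pf4 were added after their values were seen, and Fos was named outside the rule. Alternatives covered scale, normalization, filter, probe set choice, samples fitted, replicate block, array weights, arrays nearer another group, and single arrays.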

Additional observations from a re-analysis of the deposited data

Results flagged for a closer look

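Within each group of 5 or 6 arrays, the highest or lowest value was set against its nearest neighbour by Dixon's ratio at its 95% limit. Of 276 sets of values, 54 were over the limit. About 1 in 20, or 13.8, would be for independent, normally distributed sets picked without regard to their values. These sets were not such: flagged genes include Sgcb, Drg1 and Spmip6, named after their values were seen, and several tubulins on the same arrays. Whether 54 exceeds chance was therefore not tested. Of the 54, 40 lay on the 3 arrays nearer another group. All values are intensities unless a count is named.

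Vincristine replicate 5 was lowest of its group for Tuba4a (760.1), Tuba8 (496.8), Tubb2a (311.5), Tubb4b (716), Tubb5 (508.1), Tubb6 (115.4) and Tubg1 (210.1). It was highest for Dyrk3 (36.19), Tppp3 (3004), Fam216b (552), Rfx2 (554.6), Nppa (6049), Pdlim3 (2028), Smim3 (779.5), Hamp (208.5) and Dusp14 (915.9), and for the count of genes 2-fold from saline (60).

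Vinblastine replicate 5 was lowest for Tuba4a (709.4), Tubb2a (222.2) and Tubb4b (513.8). It was highest for Tnfrsf12a (1286), S100a8 (135.3), S100a9 (567.8), Lgals3 (849), Cd14 (368.1) and the count of genes 2-fold from saline (186).

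Colchicine replicate 6 was lowest for Tuba8 (462.3), Tubb2a (279.1), Tubb4b (547.5) and Spmip6 (62.22). It was highest for Xdh (1492), Csrp3 (15900), Tnfrsf12a (1352), S100a8 (126.5), S100a9 (501.6), Klf9 (4116), Ccn1 (2456), Ankrd23 (788), Hamp (395.9) and the count of genes 2-fold from saline (213).

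Saline replicate 6 was lowest for Tuba4a (2958), Tubb4b (1876), Tubg1 (323.4) and Tfrc (1548), and highest for Fam216b (377.7), Spmip6 (109.6) and Cd14 (127.8). Single values on other arrays were Podn (147.5) and Sgcb (1133) on vincristine replicate 1, Spmip6 (106.2) on vinblastine replicate 3, Nppa (859.4) and Drg1 (105.3) on vinblastine replicate 6, RT1-Bb (21.81) on colchicine replicate 2 and Alas2 (486.6) on colchicine replicate 3.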

How the results depend on the processing

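The count of 0 genes for the pooled lower doses held under 11 of 12 alternatives and in all 23 fits without 1 array (0 to 0). Array weights gave 6 genes for the pooled doses (Bbc3, Npy, Pf4, Podn, Tubb1 and, named after its value was seen, Usp32), 3 for vinblastine, 52 for vincristine and 4 for colchicine; the cause was not tested. Without the arrays nearer another group there was 1 gene for vinblastine, 2 for colchicine, 9 for the difference between times and 16 for the pooled doses at 6 h, where the count with all arrays was 1 and with only the groups compared 0. Without 1 array at a time the counts ran from 0 to 1 for vinblastine (1 without vinblastine replicate 3), 0 to 0 for vincristine, colchicine and the difference between times, 4842 to 5349 for the higher against the lower doses, and 0 to 1 for the pooled doses at 6 h, where Smim3 (0.39 ± 0.08, limma adjusted p 0.03) lost its call without any 1 of saline replicates 1, 3, 5 and 6 or colchicine replicates 2 to 6 of that time. The higher against the lower doses gave 4797 to 6067 genes over 10 alternatives.

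With the replicate block the pooled count was also 0. Estimates near 0 took the other sign: Tppp3 with the replicate block (-0.023), Tubb4a with the replicate block (0.001), quantile normalization (0.021) or the mean of probe sets (0.071), Rfx2 with log2(intensity + 16) (0.002) or drugs weighted equally (0.01), and Dusp14 with array weights (-0.031). Without the arrays nearer another group so did Tubb2a (0.072), S100a9 (-0.071), Ankrd23 (-0.042), Hamp (-0.016) and Dusp14 (-0.055). Without 1 array the changes ran from -0.05 to 0.062 for Tubb4a, -0.146 to 0.181 for Tppp3, -0.222 to 0.022 for Rfx2, -0.065 to 0.008 for Smim3 and -0.098 to 0.063 for Dusp14.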

Other observations

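The following groups had medians away from that of all genes (-0.018), each with 0 genes past the threshold. The 8 class II histocompatibility genes, which present antigen, had a median of -0.139 at the lower doses and -0.04 without the arrays nearer another group, while 6 of them were lower at the higher than at the lower doses, as were 22.8% of all genes. RT1-Da, the alpha chain of one of these molecules, was -0.20 ± 0.20 at the lower doses against saline (-0.08 without those arrays) and lower by a further log2 difference of -1.13 ± 0.15 at the higher doses (limma adjusted p 1.02e-09).

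The 22 immediate early genes had a median of 0.116, with 0.253 for vinblastine, -0.073 for vincristine and 0.138 for colchicine, and -0.009 pooled without the arrays nearer another group. The members with the lowest p were Nr4a3 (0.20 ± 0.10 pooled, or 0.12 without those arrays), Nr4a2 (0.11 ± 0.06) and Egr3. Egr3 went the other way (-0.13 ± 0.09), with 11 of the 17 treated arrays under the saline range and 2 above it. Fos, a subunit of the AP-1 transcription factor named outside the naming rule, was 0.60 ± 0.57 pooled and 0.13 without those arrays. The 17 circadian clock genes had a median of 0.108, and 0.038 without them. Tef, an output factor of the clock, was 0.32 ± 0.15 pooled (unadjusted p 0.043) and the repressor Cry1 was -0.23 ± 0.11 (unadjusted p 0.0504).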
